A study of Homo sapiens with 2 samples.

Results

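The diacylglycerol kinases (DGKs) and the RasGRP exchange factors were examined in Ramos, a Burkitt's lymphoma (BL) cell line of B-cell origin, and in Ramos640, the line derived from it by selection for resistance to rituximab. The genes were chosen by name because their products end or read the diacylglycerol signal beside protein kinase C (PKC). There were 7 kinase genes (DGKA, DGKG, DGKD, DGKH, DGKE, DGKZ and DGKQ) and 3 exchange factor genes (RASGRP1, RASGRP2 and RASGRP3), together 10 of the 37122 genes in the table, and each had a row. Ramos cells were grown without selection, while Ramos640 cells received rituximab, an antibody against CD20, with 20% normal human serum as the source of complement every 21 days. The labels and the study both put the rituximab dose at 640. The labels give it in mg/mL, but the methods, results and figure legends of the study give μg/mL. Each cell line is represented by 1 library, made from pooled RNA of 3 passages, so no difference below has a replicate check and no p-value is given, and Ramos640 stands for a single selected line.

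Diacylglycerol is made in the membrane when phospholipase C, switched on by the B-cell receptor, cuts a phosphoinositide. Many proteins with a C1 domain, among them several PKC isoforms, RasGRP1 and RasGRP3, are drawn to the membrane by it. The RasGRP factors load Ras or Rap with GTP. The DGKs phosphorylate diacylglycerol to phosphatidic acid, which ends this signal and starts others.

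The libraries held 38030090 reads for Ramos and 30871826 for Ramos640. All 8 B-cell markers examined were read, with at least 3097 reads in Ramos and 1904 in Ramos640, the lowest in Ramos640 being MS4A1, which encodes CD20. The T-cell markers CD3D and CD2 had no reads in either library. The 10 T-cell markers together had 7837 and 4896 reads, of which LCK, a Src-family kinase, held 7221 and 4572. ZAP70 had 410 and 127 reads, and CD3E had 1 and 31, and the part of other cell types in the results below was not tested. The megakaryocyte markers PF4, PPBP and GP9 had no reads in either library, and the 6 markers of that list had 64 and 31 reads in all. Of the 1181 and 985 reads on 8 monocyte markers, CTSS held 1153 and 965, while LYZ had 0 and 1.

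In Ramos640 the RNA of RASGRP1 was 8.24-fold lower than in Ramos, that of RASGRP2 was 1.83-fold lower and that of DGKA 1.56-fold lower, while RASGRP3 differed by 1.03-fold. DGKQ was 1.39-fold higher and DGKD 1.25-fold lower, and DGKE, DGKH and DGKZ had counting intervals that included no difference. In these bulk libraries, fewer cells that express a gene and less of its RNA per cell cannot be told apart. Of the 10 genes, 9 had at least 10 reads in both libraries together and each of these had over 100. Counts were divided by size factors (1.14 for Ramos and 0.876 for Ramos640), and log2 fold changes compare Ramos640 with Ramos after 1 was added to each normalized count. Intervals are at 95% and cover counting error only, not the variation between cultures. The study set both a change of 1.5-fold and a limit on the false discovery rate, and only the fold was used here. Past a change of 1.5-fold, 3 of the 9 genes were lower and 0 were higher. Among all 18778 genes with at least 10 reads, 17.3% were lower and 14.6% higher by this rule, and among the 13677 genes with at least 100 reads, 12.6% were lower and 9.94% higher. The intervals of 4 of the 9 genes lay below 0 and that of 1 lay above 0, against 37.2% and 34.9% of the genes with at least 100 reads. The median log2 fold change was -0.019 over the 6 kinases with at least 10 reads and -0.87 over the 3 exchange factors, beside -0.015 over all genes with at least 10 reads.

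**Figure D1:**
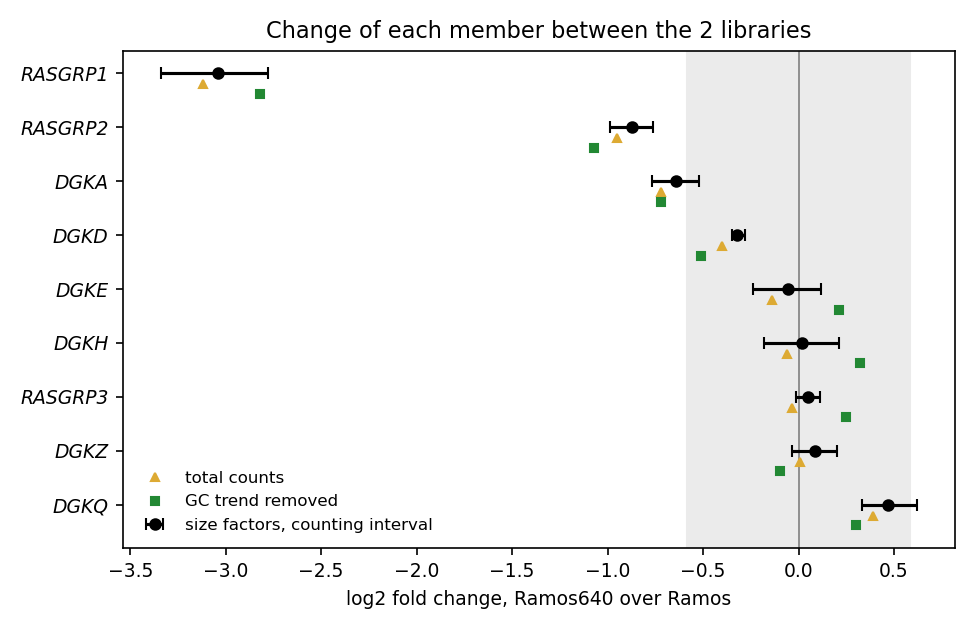
Log2 fold change of Ramos640 over Ramos (x axis) for the 9 genes with at least 10 reads (y axis), with 95% counting intervals as bars, and with the values under total counts and after removal of the GC trend as triangles and squares. The grey band marks changes under 1.5-fold, and RASGRP1 (-3.04), RASGRP2 (-0.87) and DGKA (-0.64) lie to its left.

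RASGRP1 encodes a lymphocyte exchange factor that binds diacylglycerol and acts on Ras. Its gene lies on the minus strand at chr15:38780304-38857776 of GRCh37, the build to which the study aligned its reads. Ramos gave 1275 reads and Ramos640 118, which are 1117 and 135 normalized counts. The Ramos640 library was far below the Ramos library, with a log2 fold change of -3.04 and an interval from -3.34 to -2.78. Only 34 of the 13677 genes with at least 100 reads, RASGRP1 among them, had a change as low as this. No other gene of the table overlapped it in the annotation.

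RASGRP2 encodes CalDAG-GEFI, an exchange factor that acts mainly on Rap and is best known from platelets. Its gene lies at chr11:64494383-64512928 on the minus strand. Its reads numbered 2150 in Ramos against 901 in Ramos640, or 1884 and 1028 normalized counts. The Ramos640 library was lower again, by a log2 fold change of -0.87 (interval from -0.99 to -0.76), and 6.13% of the genes with at least 100 reads had a lower value.

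RASGRP3, the exchange factor that couples the B-cell receptor to Ras together with RASGRP1, lies at chr2:33661391-33789817 on the plus strand. Its reads numbered 4827 in Ramos against 3830 in Ramos640, or 4229.8 and 4371 normalized counts. These lie close together, with a log2 fold change of 0.047 and an interval from -0.014 to 0.11, and the value was -0.033 with total counts and 0.25 once the trend over GC content was removed. FAM98A, on the opposite strand, shares 1469 annotated exon bases with RASGRP3, which are 13.7% of its exon bases. FAM98A had 3963 and 2566 reads, and since the use of strand in the counting is not stated, part of the RASGRP3 reads cannot be told apart from it.

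The 300-base windows around the RefSeq starts of RASGRP1 and RASGRP2 are shown. These genes had the lowest log2 fold changes among the members, and each has a single window. Each window runs from 250 bases before the start to 50 after it and is printed 5′ to 3′ on the gene's strand from the GRCh38.p14 table. The RASGRP1 window is at chr15:38564765-38565064 of GRCh38 and matched GRCh37 exactly at chr15:38856966-38857265. The RASGRP2 window is at chr11:64745299-64745598 of GRCh38 and matched GRCh37 exactly at chr11:64512771-64513070. Capitals mark matches to the motifs searched on both strands.
RASGRP1: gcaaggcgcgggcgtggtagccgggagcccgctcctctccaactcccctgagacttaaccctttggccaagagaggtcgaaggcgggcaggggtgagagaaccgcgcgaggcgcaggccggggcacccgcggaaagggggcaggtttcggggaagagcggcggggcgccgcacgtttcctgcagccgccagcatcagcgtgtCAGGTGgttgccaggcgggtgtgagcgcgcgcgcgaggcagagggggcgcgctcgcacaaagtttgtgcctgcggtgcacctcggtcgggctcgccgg
RASGRP2: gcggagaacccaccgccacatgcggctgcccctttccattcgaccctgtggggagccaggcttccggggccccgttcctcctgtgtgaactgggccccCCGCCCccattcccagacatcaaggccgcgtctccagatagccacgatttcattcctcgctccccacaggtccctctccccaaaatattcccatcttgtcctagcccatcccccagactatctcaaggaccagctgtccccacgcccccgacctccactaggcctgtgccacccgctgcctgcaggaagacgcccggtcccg
The motifs were the GC box GGGCGG, the E-boxes CAGGTG and CACGTG, the AP-1 site TGANTCA and the ETS site CCGGAAGT, none of which overlapped another here. RASGRP1 held the E-box CAGGTG at position -48 from the start, a motif found in 20.6% of all 35116 windows. RASGRP2 held a GC box on the other strand, at position -152, and 45.0% of all windows hold that motif. CACGTG was in 7.26% of all windows, TGANTCA in 7.71% and CCGGAAGT in 4.14%, and none of these was in the windows of RASGRP1 or RASGRP2. The GC content was 71.3% in the RASGRP1 window and 65.0% in the RASGRP2 window, beside a median of 58.7% over all windows. The table held 21 windows for 9 of the 10 genes. CACGTG and TGANTCA were in none of these 21, and the ETS site was in 1 of the 5 windows of DGKA.

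Shares of the reads within a family do not depend on how the libraries are scaled. RASGRP3 held 58.5% of the 8252 reads of the 3 exchange factors in Ramos (exact binomial interval from 57.4% to 59.6%) and 79.0% of the 4849 reads in Ramos640 (77.8% to 80.1%). The share of RASGRP2 was 26.1% in Ramos and 18.6% in Ramos640, and that of RASGRP1 was 15.5% (14.7% to 16.2%) and 2.43% (2.02% to 2.91%). Per read of RASGRP3 there were 0.264 reads of RASGRP1 in Ramos and 0.0308 in Ramos640, a change of -3.10 on the log2 scale (interval from -3.38 to -2.82 from the counting error of the log ratio). RASGRP1 was also lower against RASGRP2, by -2.18 on the log2 scale (-2.47 to -1.88). The GC trend was not removed from these shares and ratios, and their intervals do not cover it. Without that trend the log2 fold changes were -2.82 for RASGRP1, -1.07 for RASGRP2 and 0.25 for RASGRP3.

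**Figure D2:**
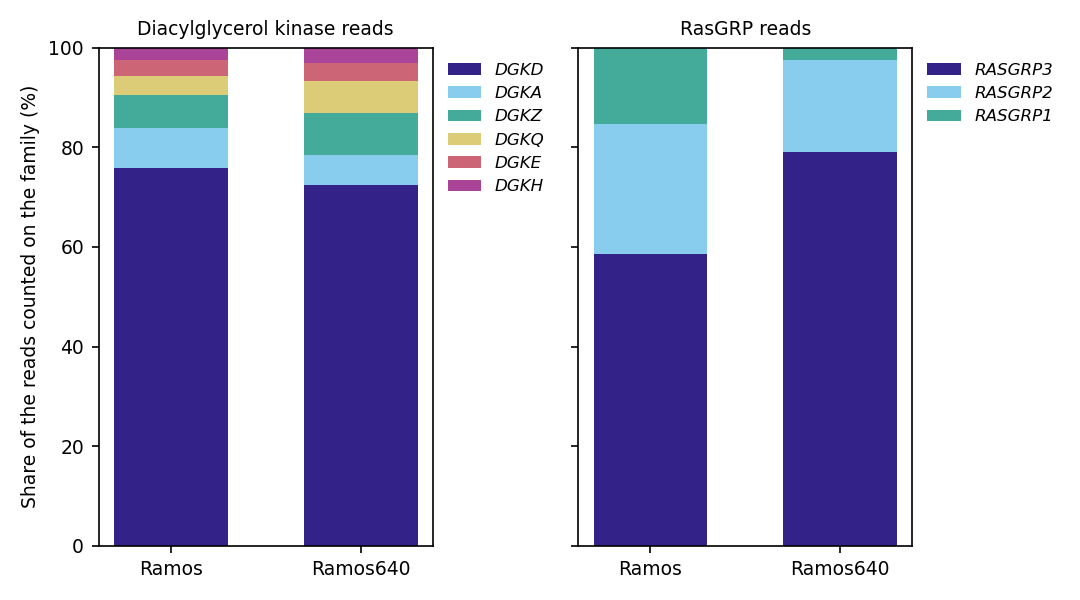
Share of the reads counted on the chosen genes of each family (y axis, in percent) that each gene held in the Ramos and Ramos640 libraries. Stacked bars show the DGKs (left) and the RasGRP factors (right), and DGKI and RASGRP4 are left out of the totals. DGKG, with 0 and 3 reads, is not drawn. The RASGRP1 segment goes from 15.5% to 2.43% and the DGKD segment from 75.8% to 72.4%.

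Among the kinases, DGKD led in both libraries. DGKD, a kinase of the type that carries a PH and a SAM domain, lies at chr2:234263140-234380750. Ramos gave 14786 reads and Ramos640 9117, or 12957 and 10404 normalized counts. Ramos640 was lower by less than the 1.5-fold limit (log2 fold change -0.32, interval from -0.35 to -0.28). Of the reads of the 7 kinases, DGKD held 75.8% of 19512 in Ramos and 72.4% of 12593 in Ramos640. DGKI (623 and 500 reads), described below, is outside these 7 and was left out of the totals. DGKH, a kinase of the same type, lies at chr13:42614172-42830714 and had 490 and 381 reads, or 429 and 435 normalized counts. The levels of DGKH in the libraries were close (log2 fold change 0.018, interval from -0.18 to 0.21), but the value was 0.32 without the GC trend.

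DGKA, a calcium-responsive kinase best studied in T cells, where it opposes signalling by RasGRP1, lies at chr12:56321103-56347811. Ramos gave 1571 reads and Ramos640 774, or 1377 and 883 normalized counts. Ramos640 was lower, with a log2 fold change of -0.64, and the interval from -0.77 to -0.52 reached across the 1.5-fold limit of -0.58 on this scale. WIBG, on the opposite strand, shares 353 exon bases (3.50% of those of DGKA) and was higher in Ramos640, with 1980 and 2155 reads (log2 fold change 0.50). Per read of RASGRP1 there were 1.23 reads of DGKA in Ramos and 6.56 in Ramos640, a log2 change of 2.41 (2.11 to 2.71). Both genes were lower in Ramos640, RASGRP1 (-3.04) by more than DGKA. DGKG, a further kinase of the calcium-responsive type, lies at chr3:185823457-186080023 and was listed with 0 reads for Ramos and 3 for Ramos640. Both are within the 3 reads that a count of 0 allows (0.0789 CPM in Ramos and 0.0972 CPM in Ramos640), so no fold is given.

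DGKE, which prefers diacylglycerol with an arachidonoyl chain, lies at chr17:54911468-54946928. It had 605 and 447 reads, or 530.1 and 510.1 normalized counts, with a log2 fold change of -0.055 (interval from -0.24 to 0.12) and of 0.21 without the GC trend. DGKQ, a kinase with an additional C1 domain, lies at chr4:952675-980683 with 764 reads from Ramos and 815 from Ramos640. Its normalized counts were 669 and 930.1, and it was the only one of the 9 genes with an interval above 0 (log2 fold change 0.47, interval from 0.33 to 0.62). Its share of the reads of the 7 kinases was 3.92% in Ramos and 6.47% in Ramos640 (6.05% to 6.92%). Per read of DGKD there were 0.0517 and 0.0894 reads of DGKQ.

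DGKZ, a kinase with ankyrin repeats that is abundant in lymphocytes, lies at chr11:46354455-46402104. It had 1296 and 1056 reads, or 1136 and 1205 normalized counts, with a log2 fold change of 0.086 (interval from -0.033 to 0.20) and of -0.097 once the trend over GC content was removed. This value is uncertain, because a processed pseudogene of DGKZ took more reads than the gene. DGKZP1, at chr13:44542560-44545335, had 4187 reads from Ramos and 4017 from Ramos640, which is 3.23 and 3.80 times the reads of DGKZ. All of the 2776 annotated bases of DGKZP1 aligned to a DGKZ transcript, with 98.7% identity. How reads that fit both places were counted is not stated, so reads of DGKZ RNA may stand on the pseudogene's row and the reverse. With both rows added, DGKZ had 5483 and 5073 reads, and the log2 fold change was 0.27 (interval from 0.21 to 0.32). Of the reads of the 7 kinases with DGKZP1 added, DGKZ then held 23.1% in Ramos and 30.5% in Ramos640, and DGKD held 62.4% and 54.9%.

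The levels of different genes were compared as RPKM, the reads per kilobase of merged annotated exons scaled to the total reads of the library. In Ramos the order was DGKD (39.7), RASGRP3 (11.8), RASGRP2 (9.29), DGKA (4.09), DGKQ (4.03), DGKZ (3.16), RASGRP1 (2.53), DGKE (1.46), DGKH (0.653) and DGKG (0). Only DGKA and DGKQ had counting intervals that overlapped those of their neighbour in this order. In Ramos640 it was DGKD (30.2), RASGRP3 (11.5), DGKQ (5.30), RASGRP2 (4.80), DGKZ (3.17), DGKA (2.48), DGKE (1.33), DGKH (0.625), RASGRP1 (0.288) and DGKG (0.00885), and only DGKQ and RASGRP2 overlapped. DGKD was first in both libraries, while RASGRP1 stood seventh in Ramos and ninth in Ramos640. The second place depends on the pseudogene, since DGKZ with the DGKZP1 reads added was at 13.4 in Ramos (interval from 13.0 to 13.7) and 15.2 in Ramos640 (14.8 to 15.7), above RASGRP3 in both. Summed per length, the 7 kinases had 53.1 in Ramos and 43.1 in Ramos640, and the 3 exchange factors had 23.6 and 16.6. With the reads of these 7 kinases added together, the log2 fold change was -0.25 (interval from -0.28 to -0.22, and -0.13 with DGKZP1). For the 3 exchange factors it was -0.39 (-0.44 to -0.33).

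**Figure D3:**
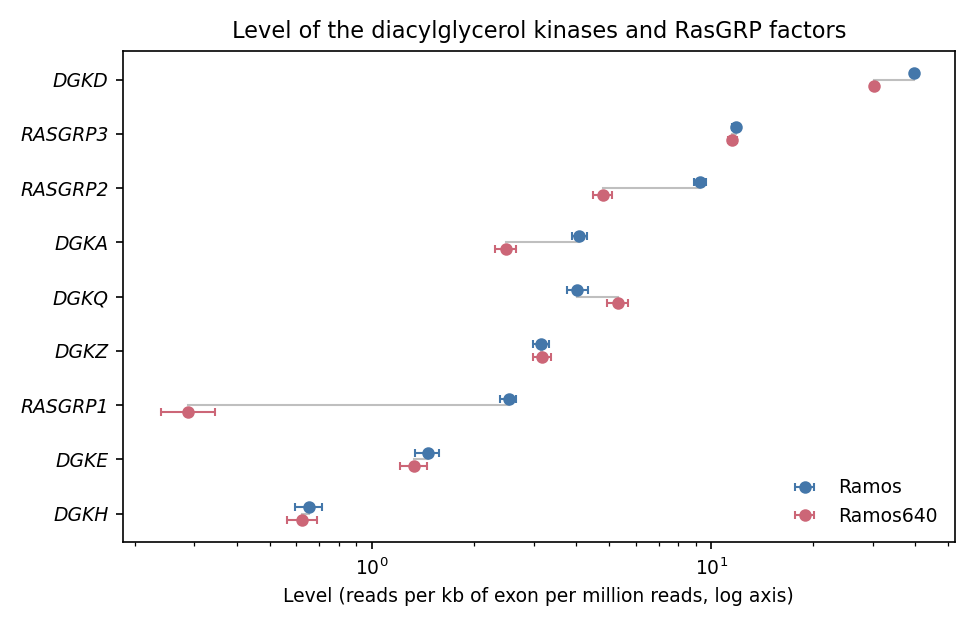
Level of each gene (x axis, RPKM, log axis) in Ramos and Ramos640, with 95% Poisson counting intervals as bars and a grey line between the libraries. DGKG, at 0 and 0.00885, is not drawn. RASGRP1 has the longest line, from 2.53 to 0.288.

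The rest of the family was read little or not at all, apart from DGKI. DGKI, the kinase of the same type as DGKZ, had 623 and 500 reads, with a log2 fold change of 0.064 (interval from -0.11 to 0.24). DGKB and DGKK had no reads in either library. RASGRP4, known from mast cells and other myeloid cells, had 5 and 14 reads (1.66, interval from 0.31 to 3.69).

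**Figure D4:**
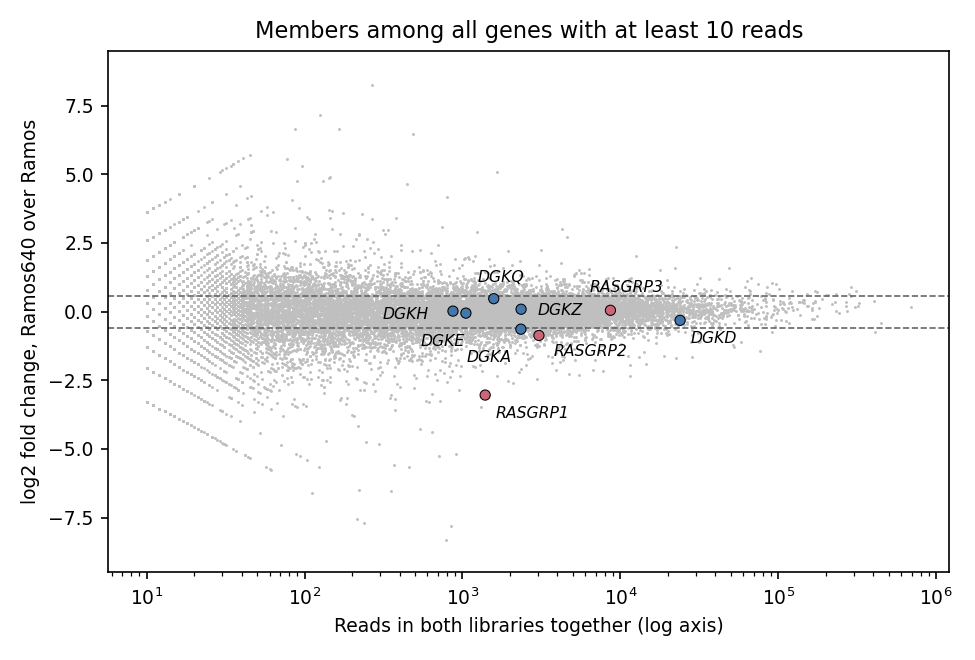
Log2 fold change (y axis) against the reads in both libraries together (x axis, log axis) for the 18778 genes with at least 10 reads, in grey, with the kinases in blue and the exchange factors in red. Dashed lines mark a change of 1.5-fold, and RASGRP1, at -3.04, is the lowest of the kinases and exchange factors.

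Genes beside these members on the chromosomes were compared next, as the 5 nearest protein-coding genes with at least 100 reads on each side. The 10 neighbours of RASGRP1, spread over 5.24 Mb, had log2 fold changes from -0.66 to 0.83 with a median of -0.044, so all of them lay far above RASGRP1. The nearest were FAM98B (1545 and 927 reads, -0.36) and THBS1 (92 and 51 reads, -0.46, interval from -0.99 to 0.039). The neighbours of RASGRP2, over 0.583 Mb, ranged from -0.79 to 0.68 with a median of 0.19, and the nearest were RPS6KA4 (0.17) and SF1 (-0.021). Those of DGKA ranged from -0.74 to 1.23 with a median of -0.20, the nearest being WIBG (0.50) and PMEL (-0.43, interval from -0.90 to 0.016). DGKQ had neighbours from -0.51 to 0.89 with a median of 0.12, and the nearest were TMEM175 and IDUA. TMEM175 had 185 and 192 reads (0.43, interval from 0.14 to 0.73). IDUA had only 43 and 62 reads (0.89, interval from 0.32 to 1.51). Both were higher in Ramos640, as DGKQ was. The neighbours of the other 6 genes had medians from -0.48 (DGKG) to 0.31 (DGKZ).

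**Figure D5:**
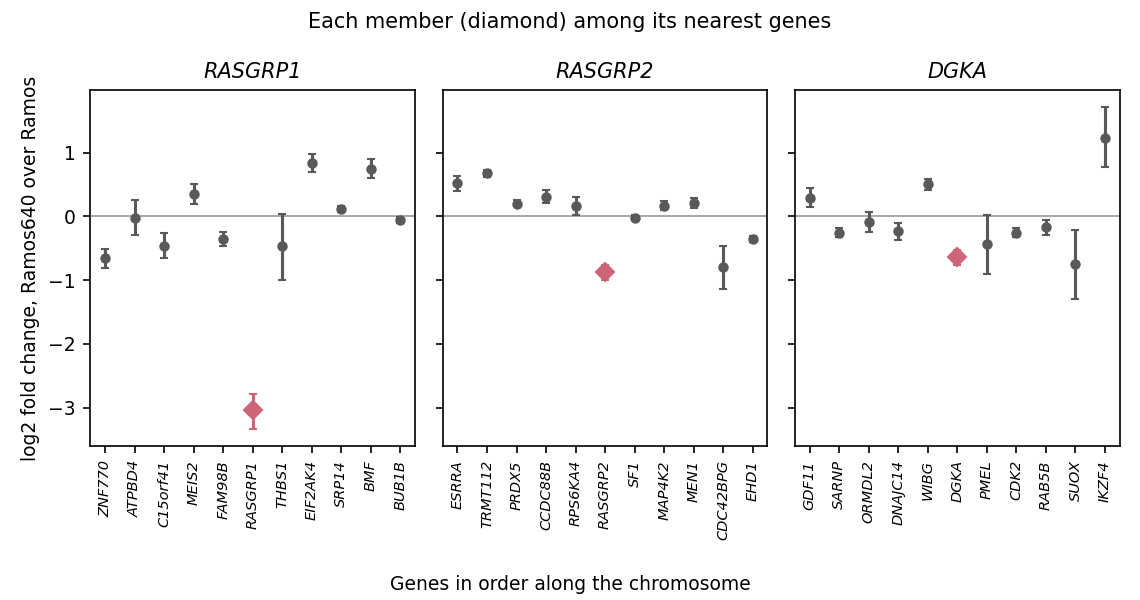
Log2 fold change of Ramos640 over Ramos (y axis) for RASGRP1, RASGRP2 and DGKA (red diamonds) and their 5 nearest protein-coding genes with at least 100 reads on each side (grey points, in chromosome order on the x axis), with 95% counting intervals. RASGRP1 lies at -3.04, below neighbours between -0.66 and 0.83.

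The genes that act before and after these factors were taken as lists, and all counts below use the 1.5-fold limit and genes with at least 10 reads, for which 14.6% of all genes were higher and 17.3% lower. Of the Ras and Rap GTPases, which the RasGRP factors load with GTP, 10 of 11 reached 10 reads, with 1 higher and 3 lower (median log2 fold change -0.47). HRAS had 1155 and 1485 reads (0.74) and RAP1A 6095 and 6555 (0.49), while RRAS2 had 347 and 82 (-1.69) and RAP2B 1343 and 496 (-1.05). Removal of the GC trend put HRAS (0.52) within the limit and RAP1A (0.78) past it, and the median was then -0.24. Of the other exchange factors for Ras and Rap, 9 of 10 reached 10 reads, with 0 higher and 2 lower (median -0.21). SOS2, a Ras exchange factor recruited by receptors, had 1134 and 454 reads (-0.94), and RAPGEF1, an exchange factor for Rap, had 20745 and 15908 (-0.0019, interval from -0.032 to 0.028). RAPGEF2 (-0.15, interval from -0.34 to 0.032) and RAPGEF5 (-0.25) lay between them.

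Among the GTPase-activating proteins, which switch Ras and Rap off, 14 of 16 had at least 10 reads, with 2 higher and 2 lower (median 0.13, and -0.0074 after removal of the GC trend). DAB2IP had 79 and 327 reads (2.41) and RAP1GAP2 981 and 937 (0.31). NF1, with 1747 and 880 reads (-0.61), and RASA1, with 1215 and 618 (-0.59), lay just past the limit, and both were within it after removal of the GC trend (-0.39 and -0.47), which left 0 lower. All 9 Raf, MEK and ERK kinases and scaffolds reached 10 reads, with 2 higher and 0 lower (median 0.072). ARAF had 1507 and 1977 reads (0.77), while MAPK3, which encodes an ERK kinase, had 1360 and 797 (-0.39, and -0.59 without the GC trend).

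Of the other proteins that read diacylglycerol through a C1 domain, 11 of 16 reached 10 reads, with 0 higher and 3 lower (median -0.24). PRKCB had 216 reads from Ramos and 0 from Ramos640, which is 55.3-fold lower with the floor of 3 reads in place of the 0. The upper end of its counting interval was -5.48 on the log2 scale. PRKCH had 88 and 17 reads (-1.94), while PRKCA (5842 and 5368, 0.26) and PRKCD (5122 and 4617, 0.23) were higher within the limit. These values are of RNA only. In immunoblots, which measure protein, the study found PKCα, PKCβ2, PKCγ and PKCη higher in Ramos640 than in Ramos. PRKCB and PRKCH encode PKCβ and PKCη, and the cause of this difference between RNA and protein was not tested. Of the phospholipase C genes, 10 of 13 had at least 10 reads, with 1 higher and 2 lower (median -0.16). PLCB2 had 103 reads from Ramos and 1 from Ramos640, a log2 ratio of -6.31 with nothing added to the counts (interval from -11.62 to -3.80). PLCG1 (6415 and 5421 reads, 0.14), PLCD4 (0.35, interval from -0.026 to 0.74) and PLCD1 (-0.43, and -0.62 without the GC trend) were within the limit. So was PLCG2, named after the values were seen, which had the most reads of this list (22813 and 16188, -0.11).

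The other enzymes that make or use diacylglycerol and phosphatidic acid had 18 of 23 genes with at least 10 reads, 2 higher and 4 lower (median -0.014). ABHD6, a lipase, had 760 and 971 reads (0.73) and AGPAT1, which makes phosphatidic acid, 926 and 928 (0.38). PPAP2A, a phosphatase that turns phosphatidic acid back to diacylglycerol, had 195 and 51 reads (-1.54), and SGMS1, a sphingomyelin synthase that releases diacylglycerol, 1479 and 739 (-0.62, and -0.43 without the GC trend). The remaining genes of these lists past the limit are named after their values were seen. RAP1B (3610 and 1760 reads, -0.66, and -0.34 without the GC trend) was lower and MGLL, which encodes monoacylglycerol lipase, was higher (11 and 76 reads, 3.04). PLCD3 (50 and 12 reads) was lower, and SIPA1L2 (5 and 12), KSR1 (8 and 12) and PLCH2 (11 and 14) were higher on few reads. RASGRF2 (24 and 3 reads), CHN1 (9 and 2), PPAP2B (12 and 2) and SGMS2 (15 and 1) had 3 or fewer reads in Ramos640.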

How the data were processed

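RNA-seq was performed on 1 library of Ramos and 1 of Ramos640, each from RNA pooled over 3 passages. Adaptor sequences were removed from the Ion reads, which the authors aligned with MapSplice (v2.1.6) to GRCh37, and they deposited counts of reads per gene without normalization. The counting program, its annotation, its use of strand and its treatment of reads with several matches are not given in the sources used here. Each column was assigned by its name, which is the title of 1 sample.

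Size factors were the median of ratios of the DEseq method, and each count was divided by the factor of its library. The log2 fold change used a pseudocount of 1, and its 95% interval was the Clopper-Pearson interval for the part of each gene's reads that came from Ramos640, carried to the log2 scale. These intervals and the floor of 3 reads cover counting error only. With 1 library per cell line no dispersion can be estimated, so neither the quasi-likelihood test of edgeR nor DESeq2 was run, and a gene was called past the fold above a change of 1.5-fold with at least 10 reads in both libraries together. TMM factors (edgeR 4.0.16), total counts, pseudocounts of 0.1 and 10, read minimums of 1 and 100 and removal of a running median over the GC content of 501 genes were the alternatives. The GC content was that of the longest transcript, and lengths and positions were those of GENCODE 44 lifted to GRCh37, in which 84.1% of the genes with at least 10 reads and all 10 members had a match. DGKZP1 was aligned to DGKZ transcripts with blastn (2.17.0). Promoter windows came from RefSeq (GRCh38.p14). The steps were tested on simulated counts with known changes. The members, the lists and the alternatives were chosen with earlier results of these data known, and adding DGKZP1 to DGKZ was chosen after the values were seen. All members and the other family genes are named, and from each list the 2 highest and 2 lowest genes with at least 100 reads, apart from some that are not reported here. The B-cell, T-cell, monocyte and megakaryocyte markers were lists of well-known genes.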

Additional observations from a re-analysis of the deposited data

How the results depend on the processing

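With 1 library per cell line, the variation between cultures is unknown, and no replicate could be left out. Under the 7 alternatives and with the reads of DGKZP1 added, which was chosen after seeing the data, 3 of the genes were lower past the limit. The count of higher genes was 0 except with a minimum of 1 read, where DGKG with 0 and 3 reads made it 1. That minimum brought DGKG into the median of the kinases, which was then 0.018. Removal of the GC trend moved this median to 0.058 and that of the exchange factors to -1.07, and the cause was not tested. Of 45 log2 fold changes of single genes under the 5 alternatives of scaling, pseudocount and GC trend, 36 stayed inside the counting interval of the gene, 7 left it when the GC trend was removed and 2 with total counts, and 0 changed their side of the limit. The 7 were DGKH (0.32), DGKE (0.21), RASGRP3 (0.25), DGKQ (0.30), DGKZ (-0.097), DGKD (-0.51) and RASGRP2 (-1.07). Adding DGKZP1 moved DGKZ to 0.27 and its level per length above that of RASGRP3 in both libraries. With the length of the longest transcript in place of merged exons, DGKD was again first and RASGRP3 the next in both libraries, except that with DGKZP1 added DGKZ passed RASGRP3 in Ramos640 (28.6 and 26.2), DGKQ fell to the seventh place in Ramos and the fifth in Ramos640, and the intervals of RASGRP1 (0.579) and DGKH (0.705) in Ramos640 overlapped. Whether DGKE, DGKH, DGKZ and RASGRP3 differed therefore depended on the processing, and DGKG was too little read to compare. In the pathway lists, for which the alternatives were chosen after seeing the data as well, TMM factors changed 0 calls, and removal of the GC trend put HRAS, RAP1B, NF1, RASA1, PLCH2 and SGMS1 within the limit and RAP1A, RAPGEF3, MAPK3, PLCD1 and PNPLA2 past it, while total counts put RAP2C, RAPGEF3 and RASA2 past it.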
